A study of Oryza sativa with 32 samples.

Results

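The shoot transcripts of 1 transgenic rice line, AGR1/7, were compared with those of wild type rice. The comparison takes 8 of the 32 arrays of the series, namely the 4 replicates titled as AGR1/7 shoots and the 4 titled as wild type shoots. The wild type is Oryza sativa cv. Nipponbare without a transgene. AGR1/7 carries OsANT1:HvAlaAT, the coding sequence of a barley alanine aminotransferase behind the promoter of the rice gene OsANT1, which the labels describe as a root promoter. Plants of both groups grew in hydroponics with 5 mM ammonium as nitrogen source, at 28 °C and 70% relative humidity, with a 14 h day at 750 µE and a 10 h night, and shoots were taken at mid-day at maximum tillering. AGR1/7 is a single line, so an effect of the transgene and an effect of its insertion or of the line's own history cannot be told apart within this comparison. The shoots of the other 2 lines, AGR1/8 and AGR3/8, carry the same construct and were grown alike, and so were the roots of AGR1/7 and of wild type. They enter below where a difference from them was tested. The transcript of the barley gene itself was not analysed here.

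Alanine aminotransferase converts pyruvate and glutamate into alanine and 2-oxoglutarate and back. Ammonium taken up by rice is built into glutamine and glutamate by glutamine synthetase and glutamate synthase, and glutamate is also the starting point of chlorophyll. Chlorophyll synthesis runs in the plastid, through the tetrapyrrole pathway shared with haem and a magnesium branch of its own. The plastid transcribes and translates its own genome with proteins that are mostly made from nuclear genes and then imported.

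Transcript levels are given as the deposited intensities, which had been scaled to a common mean per array. Differences are on the scale log2(intensity + 16), with the standard error of the fit, and group levels are mean intensities ± SD over n = 4 arrays. A probe set was called when its limma p-value, after Benjamini-Hochberg adjustment across 38129 tested probe sets, was under 0.05. Median intensity ran from 15 to 17.1 on the wild type arrays and from 16.6 to 17.8 on the AGR1/7 arrays. Wild type replicate 1 stood slightly apart, with the lowest mean correlation to its own group among the 8 arrays (0.977, against 0.980 to 0.983 for the others) and the lowest array weight of the 16 shoot arrays (0.559), so the comparison was repeated without it. The ratio of the 3′ to the 5′ GAPDH control probe sets ran from 1.52 to 27.2 in wild type and from 2.10 to 19.8 in AGR1/7. Replicate 2 held the highest GAPDH ratio in each group, and the others reached at most 4.25 in wild type and 2.97 in AGR1/7. The same ratio for actin ran from 5.64 to 6.89 in wild type and from 6.28 to 9.38 in AGR1/7. For EF1a it ran from 0.035 to 0.336 in wild type and from 0.115 to 0.522 in AGR1/7. Leaf markers were bright in both groups, where 16 probe sets of 8 genes summed to 64865 to 76459 in wild type and 72466 to 86184 in AGR1/7, against 486 to 817 in wild type root. The sum of 12 root marker genes was 2889 to 3769 in wild type shoot and 3674 to 4800 in AGR1/7 shoot, against 17834 to 26839 in wild type root. Of these, NAAT1 averaged 1203 in wild type shoot and 2113 in AGR1/7 shoot (adjusted p = 0.246), and 1200 in wild type root. The other root markers tested moved either way. Wild type and AGR1/7 shoots averaged 291 and 211 for Lsi1 (adjusted p = 0.0587), 1678 and 1580 for tom1 (adjusted p = 0.775) and 8.75 and 13.75 for IRT2 (adjusted p = 0.722). The root silicon transporter Lsi2 was near 0 in both shoot groups. The part of these markers and control ratios in the results was not tested. Floral meristem markers, 17 genes, summed to 685 to 877 in wild type and 733 to 904 in AGR1/7. In whole shoots, fewer cells of a type and less RNA per cell cannot be told apart.

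Against wild type, AGR1/7 shoots showed a limited set of moderate differences. Of the 38129 probe sets tested, 609 were called (1.6%), 333 higher (0.873%) and 276 lower (0.724%). The called probe sets include 424 genes, 75 of them with a gene name, and 152 probe sets that the annotation used assigns to no gene. Probe sets with 1 gene held 456 of the 609 calls and were called more often than the rest. By chromosome, 1.42% to 3.2% of the tested ones were called. The gene lists below hold only such probe sets. The shares called over all tested, given beside the lists, are therefore a low background for them. Most differences were small. 173 called probe sets changed by less than 0.5 log2, 344 by 0.5 to 1, 92 by 1 or more (63 higher, 29 lower) and 7 by 2 or more. The intensities of the 4 and 4 arrays did not overlap for 595 of the 609, where 8.74% of all tested probe sets showed no overlap (5.3% higher, 3.44% lower). The median change over all tested probe sets was 0.023 log2. When the arrays were centred on their medians the split moved to 208 higher and 388 lower, so the balance of higher and lower calls depends on the scaling.

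**Figure D1:**
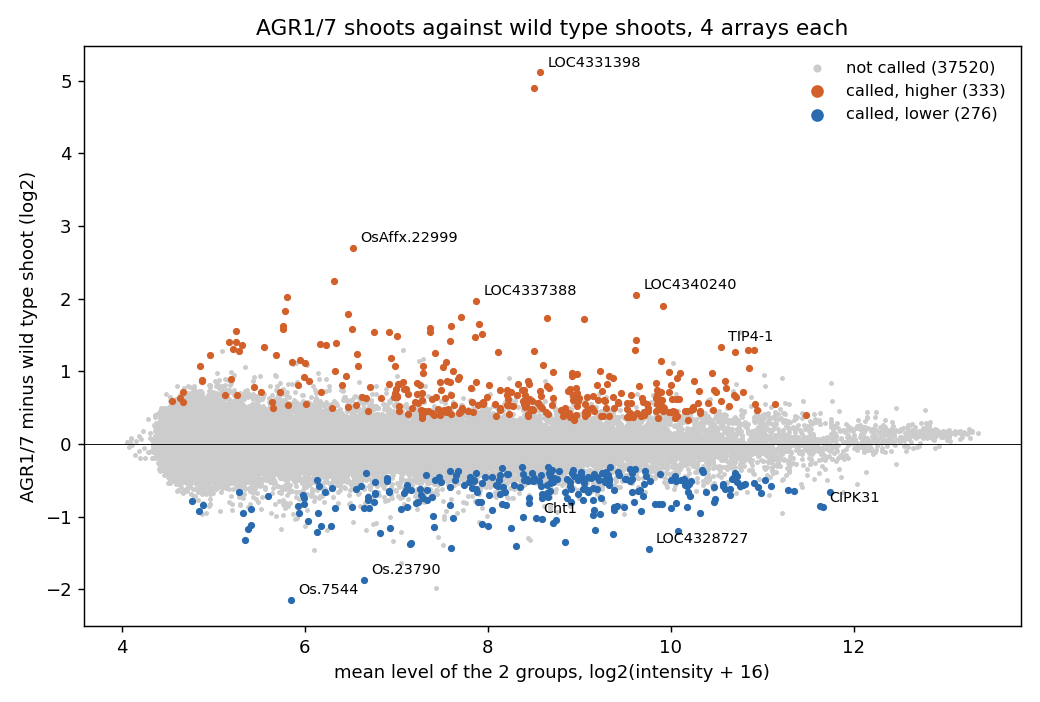
Change in AGR1/7 shoot against wild type shoot (log2, vertical axis) by the mean level of both groups as log2(intensity + 16) (horizontal axis), 1 point per tested probe set. The 333 called higher are orange, the 276 called lower blue and the rest grey. Both probe sets of LOC4331398 stand near 5 log2, above all others, and most called points lie within 1 log2 of 0.

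The transcript with the largest change was LOC4331398, which went from background in wild type to a clear level in AGR1/7. One probe set read 0.7, 10.1, 3.7 and 8.3 on the wild type arrays and 673.7, 745.6, 708.6 and 774.4 on the AGR1/7 arrays. The groups were far apart, and the change was 5.11 ± 0.43 log2 (adjusted p = 2.28e-06), with 4.89 ± 0.36 log2 (adjusted p = 4.54e-07) on a further probe set of the gene. The probe set that rose most among those with no gene in the annotation, called here the top unassigned probe set, read 1.6, 12.5, 11.4 and 5 on the wild type arrays and 102.9, 225.7, 171 and 79.7 on the AGR1/7 arrays, a rise of 2.70 ± 0.32 log2 (adjusted p = 0.000141). The lowest AGR1/7 array lay above every wild type array. Both were measured in the other lines too. LOC4331398 averaged 842 ± 59.6 in AGR1/8 and 181 ± 155 in AGR3/8, and the top unassigned probe set averaged 361 ± 107 and 193 ± 77.8. Against the mean of those lines the AGR1/7 difference was 1.08 ± 0.37 log2 (adjusted p = 0.221) for LOC4331398 and -0.82 ± 0.28 log2 (adjusted p = 0.215) for the unassigned probe set.

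Other strong rises included TIP4-1 and BBD1, which have an annotated product, and genes given here by identifier only. TIP4-1, an aquaporin of the vacuolar membrane, read 460.9, 880, 1018.3 and 1089.7 on the wild type arrays and 1932.7, 2225.6, 1975.3 and 2275.3 on the AGR1/7 arrays. All AGR1/7 arrays were above all wild type arrays, of which replicate 1 was the lowest, and the rise was 1.34 ± 0.21 log2 (adjusted p = 0.00232), or 1.07 ± 0.16 log2 (adjusted p = 0.00189) without that replicate. It was the 1 called member among 27 probe sets of aquaporin and silicon transport genes, whose median change was -0.078 log2, where 0.873% of all tested probe sets were called higher. BBD1, annotated as a bifunctional nuclease, rose from 226 ± 25.9 to 806 ± 233, by 1.72 ± 0.21 log2 (adjusted p = 0.000214). LOC4348646, whose aliases ARD1 and HSFA2C belong to different known proteins, rose by 1.74 ± 0.37 log2 (adjusted p = 0.0178) on 1 probe set and showed -0.076 log2 on another (adjusted p = 0.9), and the call of the first was lost without wild type replicate 3 or without AGR1/7 replicate 3 or 4 (adjusted p up to 0.0638). LOC4333719 rose from 412 ± 73.9 to 1126 ± 62.4, by 1.43 ± 0.11 log2 (adjusted p = 1.3e-06), and by 1.29 ± 0.15 log2 (adjusted p = 0.000141) on a further probe set. Wild type roots averaged 15.2 ± 4.17 on the first of these. LOC4350698 rose from 172 ± 41.7 to 599 ± 50.6, by 1.74 ± 0.16 log2 (adjusted p = 7.84e-06).

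The largest falls were mostly in transcripts without a descriptive name. The probe set that fell most among those with no gene in the annotation read 66.1, 59.9, 187.1 and 13.4 on the wild type arrays and 1.4, 1.8, 3 and 0.6 on the AGR1/7 arrays. It varied widely in wild type and was at background on every AGR1/7 array, a change of -2.14 ± 0.35 log2 (adjusted p = 0.00259). AGR1/8 shoots were also at background for it (4.35 ± 1.79), while AGR3/8 shoots were above wild type (314 ± 44.4). LOC4328727 went from 1232 ± 124 to 467 ± 166, a change of -1.44 ± 0.22 log2 (adjusted p = 0.00158). Of its other 3 probe sets, the first showed -1.20 ± 0.24 log2 (adjusted p = 0.0111) and lost the call without wild type replicate 2 (adjusted p up to 0.0501), the second showed -0.95 ± 0.22 log2 (adjusted p = 0.0285) and lost it without wild type replicate 2 or 3 or without AGR1/7 replicate 1, 2 or 4 (adjusted p up to 0.104), and the third showed -0.55 ± 0.16 log2 (adjusted p = 0.103). LOC4326913 had changes of -1.38 log2 (adjusted p = 0.000692) and -1.36 log2 (adjusted p = 0.00037) on its probe sets, and its neighbour in the gene order, LOC4326912, was also called lower (-0.49 log2). LOC4333648 and LOC4344351 changed by -1.40 ± 0.20 log2 (adjusted p = 0.000826) and -1.35 ± 0.20 log2 (adjusted p = 0.00117). Cht1, a chitinase, read 518.2, 294.5, 490.2 and 625 on the wild type arrays and 218.8, 214.7, 273.8 and 188.6 on the AGR1/7 arrays. The highest AGR1/7 array stayed below the lowest wild type array, and the gene fell by 1.02 ± 0.17 log2 (adjusted p = 0.00395).

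Genes of chlorophyll synthesis were among the transcripts that rose. Of 16 tested probe sets of chlorophyll metabolism genes, 4 were called higher and 0 lower, where 0.873% and 0.724% of all tested probe sets were. Their median change was 0.12 log2, and 14 of 16 lay above 0 (54.6% of all tested). The list was chosen with earlier results of these data known, so its counts are given as a description. CHLD, also named CHL1, a subunit of the magnesium chelatase that opens the chlorophyll branch, read 651.5, 630.7, 613.6 and 698.3 on the wild type arrays and 972.9, 1086, 894 and 940.8 on the AGR1/7 arrays. The groups did not overlap and the rise was 0.57 ± 0.091 log2 (adjusted p = 0.00232). CHLG, the chlorophyll synthase that attaches the phytol tail, rose from 254 ± 29 to 385 ± 29.1, by 0.58 ± 0.10 log2 (adjusted p = 0.00626). Both calls held with any 1 of the 8 arrays left out. PORA, a protochlorophyllide reductase that needs light, rose from 207 ± 46.8 to 354 ± 52.2, by 0.75 ± 0.18 log2 (adjusted p = 0.0456), and the call was lost without wild type replicate 1, 2 or 3 or without AGR1/7 replicate 2, 3 or 4 (adjusted p up to 0.152). The called member NYC1 acts in the breakdown of chlorophyll b. It rose from 912 ± 40.3 to 1199.8 ± 88.3, by 0.39 ± 0.092 log2 (adjusted p = 0.0393), a call that was lost without wild type replicate 1, 2, 3 or 4 or without AGR1/7 replicate 2, 3 or 4 (adjusted p up to 0.126). With the arrays centred on their medians 2 of the 16 were called and the median was 0.069 log2, and with quantile normalization 5 were called.

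The earlier steps of the pathway were looked at with a list of tetrapyrrole synthesis genes that was drawn up after the called genes had been seen, so its counts support nothing on their own. Of its 16 probe sets, 4 were called higher and 0 lower, where 0.873% and 0.724% of all tested probe sets were. The median change was 0.24 log2, against 0.023 log2 over all tested. The list shares members with the one above, and the calls of CHLD, CHLG and PORA are counted in both. CPX, coproporphyrinogen oxidase, joined CHLD, CHLG and PORA. It read 1463.6, 1266.2, 1124.1 and 1458.8 on the wild type arrays and 2021.5, 2265.5, 2154.2 and 2311.7 on the AGR1/7 arrays. The arrays of the groups were well separated and the rise was 0.72 ± 0.15 log2 (adjusted p = 0.013), lost without wild type replicate 3 (adjusted p up to 0.0651). Members that did not pass the test included the chelatase subunits CHLI (0.35 log2, adjusted p = 0.46) and CHLH (0.024 log2, adjusted p = 0.979), the glutamyl-tRNA reductase GluTR (0.036 log2, adjusted p = 0.965), the aminotransferase GSA (0.48 and 0.02 log2 on its probe sets, adjusted p = 0.0858 and 0.981), and PORB (0.18 log2, adjusted p = 0.741). The groups overlapped for CHLI, CHLH, GluTR and PORB and did not for the first probe set of GSA.

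Nuclear genes for plastid transcription, translation and protein import were higher in several places. This list, too, was drawn up after the called genes had been seen. It holds 35 tested probe sets, of which 11 were called higher and 1 lower, where 0.873% of all tested probe sets were called higher and 0.724% lower. The median change was 0.25 log2 against 0.023 log2 over all tested, and both are given as a description, since the calls shaped the list. For the transcription machinery, PRIN2, known in Arabidopsis as a regulator of plastid gene expression, read 100.7, 82.4, 72.6 and 102.3 on the wild type arrays and 218.1, 173.6, 156.8 and 219 on the AGR1/7 arrays. Every AGR1/7 array was above every wild type array, a rise of 0.98 ± 0.16 log2 (adjusted p = 0.00306). wsl3, a protein of the plastid RNA polymerase complex, rose from 79.3 ± 8.65 to 144 ± 9.41, by 0.75 ± 0.13 log2 (adjusted p = 0.00383). MRL7 and MRL7L, related chloroplast proteins, rose by 0.81 ± 0.13 log2 (adjusted p = 0.00259) and 0.46 ± 0.091 log2 (adjusted p = 0.0105). The call of MRL7L was lost without wild type replicate 3 (adjusted p up to 0.0555), and a further probe set showed -0.19 log2 (adjusted p = 0.819).

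For plastid translation, RPL18, a protein of the large subunit of the chloroplast ribosome, read 775.6, 659.3, 483.1 and 760.6 on the wild type arrays and 1210.2, 1353, 1298.9 and 1440.2 on the AGR1/7 arrays. The groups were separated by a wide gap and the rise was 0.99 ± 0.17 log2 (adjusted p = 0.00453). ASL1, a plastid ribosomal protein of the small subunit, rose from 1177 ± 93.4 to 1777 ± 109.8, by 0.59 ± 0.11 log2 (adjusted p = 0.00793). wsl6, a GTP-binding protein of the chloroplast ribosome, rose by 0.70 ± 0.15 log2 (adjusted p = 0.024), a call lost without wild type replicate 2 or 3 or without AGR1/7 replicate 3 or 4 (adjusted p up to 0.101). RRF, a ribosome recycling factor, rose by 0.47 ± 0.11 log2 (adjusted p = 0.0376), a call lost without wild type replicate 1, 2 or 3 or without AGR1/7 replicate 1, 2 or 4 (adjusted p up to 0.145). For proteins of membranes and transport, the membrane protease EGY1 rose from 840.4 ± 35.1 to 1303 ± 74.7, by 0.62 ± 0.087 log2 (adjusted p = 0.000692). SECY, the channel of the thylakoid translocase, rose by 0.46 ± 0.10 log2 (adjusted p = 0.0164), lost without wild type replicate 2 or 3 or without AGR1/7 replicate 1 (adjusted p up to 0.0742), with 0.09 log2 on a further probe set (adjusted p = 0.863). LTD, which in Arabidopsis hands light-harvesting proteins to the thylakoid route, rose by 0.44 ± 0.094 log2 (adjusted p = 0.0202), lost without wild type replicate 2, 3 or 4 or without AGR1/7 replicate 2, 3 or 4 (adjusted p up to 0.0827). PPT2, a phosphoenolpyruvate/phosphate translocator outside this list, rose from 570.4 ± 89.1 to 914 ± 93.1, by 0.67 ± 0.11 log2 (adjusted p = 0.00306).

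The member that moved the other way was GLK2, a transcription factor that activates chloroplast genes. Its called probe set read 168.7, 98.5, 103 and 89.5 on the wild type arrays and 70.2, 51.3, 45.4 and 48.1 on the AGR1/7 arrays. Wild type replicate 1 was far above its group, and the change was -0.88 ± 0.17 log2 (adjusted p = 0.0109), or -0.71 ± 0.16 log2 (adjusted p = 0.0267) without that array. The other 3 probe sets of GLK2 showed -0.51, -0.31 and -0.12 log2 and did not pass (adjusted p = 0.13, 0.27 and 0.8). The related GLK1 showed -0.23 log2, adjusted p = 0.643. Among photosynthesis genes, 0 of 25 probe sets were called higher and 1 lower (0.873% and 0.724% of all tested), with a median change of 0.044 log2. That member was PSAG, a photosystem I subunit, which went from 2426 ± 214 to 1716 ± 133, a change of -0.49 ± 0.12 log2 (adjusted p = 0.0431) that was lost without wild type replicate 2, 3 or 4 or without AGR1/7 replicate 1, 3 or 4 (adjusted p up to 0.145). Its other probe set (LOC4337812) showed -0.052 log2 (adjusted p = 0.951).

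**Figure D2:**
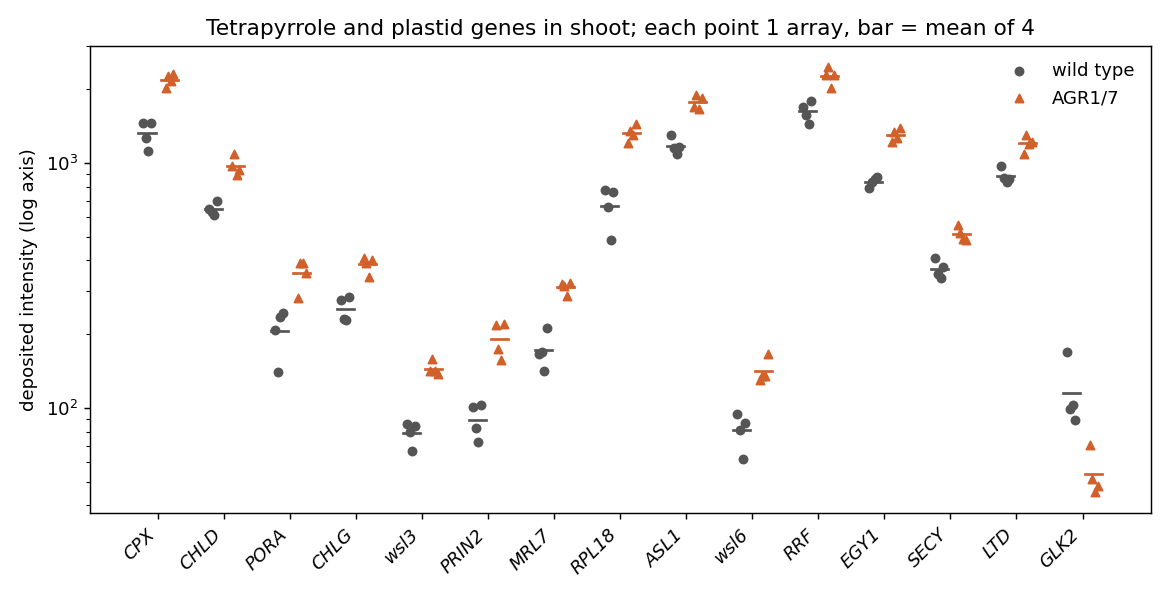
Deposited intensity (log axis) of 15 tetrapyrrole and plastid genes on the 4 wild type (circles) and 4 AGR1/7 (triangles) shoot arrays, with the mean of each group as a bar. The groups do not overlap for any of the 15, which were chosen because they were called, and GLK2 is the 1 that is lower in AGR1/7.

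Ribosomal protein genes lay above wild type as a list, with few members past the threshold. Of 37 probe sets of 24 genes, 3 were called higher and 0 lower (0.873% and 0.724% of all tested), while the median change was 0.34 log2 against 0.023 log2 over all tested probe sets. 29 of the 37 had an unadjusted p under 0.05, all 29 higher, where 12.5% of all tested probe sets had such a p. For 23 of 37 the 4 AGR1/7 arrays lay above the 4 wild type arrays, which held for 5.3% of all tested. The list was chosen with earlier results of these data known, so its counts are a description, and it mixes cytosolic and plastid proteins. Its called members were the plastid RPL18 described above, rpl5, which rose by 0.57 ± 0.14 log2 (adjusted p = 0.0393), and RPS7, which rose by 0.45 ± 0.11 log2 (adjusted p = 0.0493). The call of rpl5 was lost without wild type replicate 2 or 3 or without AGR1/7 replicate 2, 3 or 4 (adjusted p up to 0.152) and that of RPS7 without wild type replicate 1, 2 or 3 or without AGR1/7 replicate 1, 3 or 4 (adjusted p up to 0.185). RPL11, RPL5A and RPS26 showed 0.60, 0.50 and 0.49 log2 without passing. With the arrays centred on their medians 1 member was called and the median was 0.29 log2 against -0.032 over all tested, and with quantile normalization 7 were called with a median of 0.36 log2. Leaving out single arrays gave 1 to 3 called, with 1 without wild type replicate 2 or 3 or AGR1/7 replicate 3, and medians of 0.29 to 0.40 log2.

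**Figure D3:**
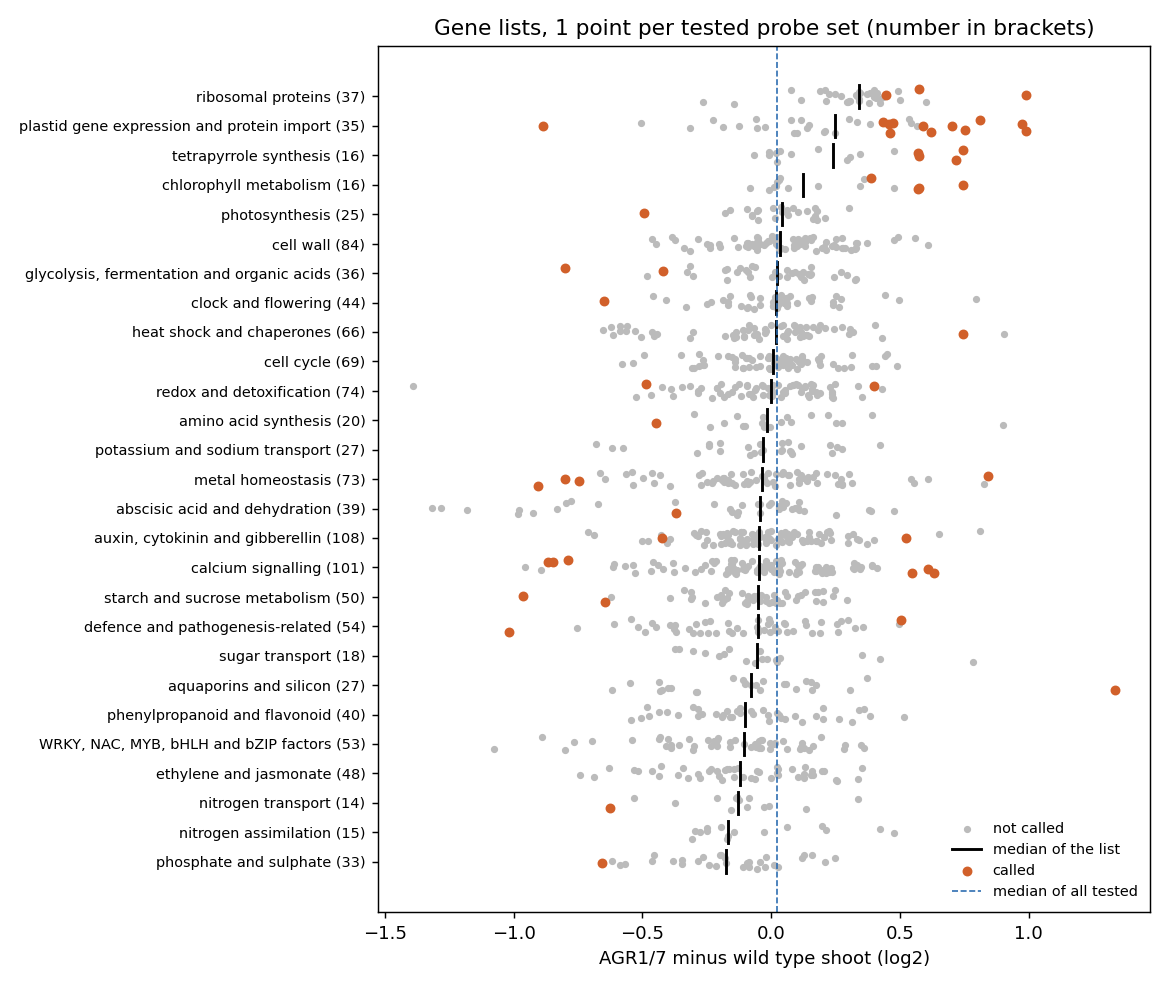
Change in AGR1/7 shoot against wild type shoot (log2) for each tested probe set of 27 gene lists, ordered by median (black bars). Called probe sets are orange and the dashed line is the median of all tested probe sets. The ribosomal list has the highest median, 0.34 log2, and the lists of plastid and tetrapyrrole genes, drawn up after the calls were seen, come next.

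Ammonium transport and assimilation genes showed 1 call. AMT1-1, a high-affinity ammonium transporter, read 1005.8, 1014.9, 967.3 and 892 on the wild type arrays and 635.9, 645.3, 627.5 and 582.7 on the AGR1/7 arrays. The AGR1/7 values were tightly grouped below all wild type values, and the gene fell by 0.63 ± 0.084 log2 (adjusted p = 0.000535), a call that held with any 1 of the 8 arrays left out. A further probe set of the gene showed -0.53 log2, adjusted p = 0.385. AMT1-1 was the 1 called lower of 14 nitrogen transport probe sets (0 higher), where 0.724% of all tested probe sets were called lower. Their median was -0.13 log2, and AMT2-1 showed -0.12 log2, adjusted p = 0.617. Of 15 nitrogen assimilation probe sets 0 were called by limma and 1 had an unadjusted p under 0.05, with a median of -0.17 log2. The cytosolic glutamine synthetases GLN1-1 and GLN1-2 showed -0.28 log2, adjusted p = 0.313, and -0.25 log2, adjusted p = 0.485. The probe sets of the plastid glutamine synthetase GLN2 showed 0.063 and -0.29 log2 (adjusted p = 0.931 and 0.484). Those of Fd-GOGAT, the ferredoxin-dependent glutamate synthase, showed -0.17, -0.20 and -0.028 log2 (adjusted p = 0.543, 0.582 and 0.969).

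Calcium signalling and metal genes moved in both directions. Of 101 calcium signalling probe sets, 3 were called higher and 3 lower, where 0.873% and 0.724% of all tested probe sets were, with a median of -0.048 log2. The calls belong to 3 genes. CIPK10, a kinase regulated by calcineurin B-like calcium sensors, accounts for the 3 higher. Its first probe set read 333.2, 389.9, 404.9 and 411.3 on the wild type arrays and 591.1, 559.5, 669.1 and 602.5 on the AGR1/7 arrays, without overlap, and the probe sets rose by 0.63 ± 0.092 log2 (adjusted p = 0.000922), 0.61 ± 0.088 log2 (adjusted p = 0.000838) and 0.55 ± 0.10 log2 (adjusted p = 0.00554), with 0.35 log2, adjusted p = 0.222 on the remaining one. CIPK31, a kinase of the same family, went from 4137 ± 156 to 2290.4 ± 439.9, a change of -0.87 ± 0.19 log2 (adjusted p = 0.0255), and changed by -0.79 ± 0.17 log2 (adjusted p = 0.0183) on a further probe set. The first call was lost without wild type replicate 2, 3 or 4 or without AGR1/7 replicate 1, 3 or 4 (adjusted p up to 0.085), and the second without wild type replicate 2 or 3 or without AGR1/7 replicate 1 (adjusted p up to 0.0648). CAX1a, a calcium/proton exchanger of the vacuole, read 770.2, 909.1, 925 and 828.2 on the wild type arrays and 631.2, 478.7, 391.9 and 406.2 on the AGR1/7 arrays. The groups did not overlap, and it fell by 0.85 ± 0.15 log2 (adjusted p = 0.0056).

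Among 73 metal homeostasis probe sets 1 was called higher and 3 lower, where 0.873% of all tested probe sets were called higher and 0.724% lower, with a median of -0.036 log2. FRO1, a ferric reductase, read 575, 695.6, 757.8 and 906.4 on the wild type arrays and 333.3, 370.4, 430.9 and 388.4 on the AGR1/7 arrays. AGR1/7 was below wild type on every array, and it fell by 0.91 ± 0.17 log2 (adjusted p = 0.00626). The metallothioneins MT1B and MT4C, small metal-binding proteins, fell by 0.80 ± 0.18 log2 (adjusted p = 0.025) and by 0.75 ± 0.15 log2 (adjusted p = 0.0156), at low shoot levels of 122 ± 33.6 and 64.1 ± 16.6 in wild type, where wild type roots read 4793 ± 389 and 6787 ± 485. The MT1B call was lost without wild type replicate 3 or 4 or without AGR1/7 replicate 2, 3 or 4 (adjusted p up to 0.106), and the MT4C call without wild type replicate 1, 2 or 3 or without AGR1/7 replicate 4 (adjusted p up to 0.0648). ZIP4, a zinc transporter, rose from 91.2 ± 20.5 to 175 ± 32.2, by 0.84 ± 0.20 log2 (adjusted p = 0.0414), a call lost without wild type replicate 2 or 3 or without AGR1/7 replicate 1, 3 or 4 (adjusted p up to 0.14).

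Of 50 starch and sucrose probe sets 0 were called higher and 2 lower, where 0.873% of all tested probe sets were called higher and 0.724% lower. The median was -0.050 log2, and 20 of the 50 lay above 0. TPP7, a trehalose-6-phosphate phosphatase, read 1391.9, 527.5, 563.5 and 708.8 on the wild type arrays and 381.3, 338.2, 343.7 and 422.7 on the AGR1/7 arrays. Wild type replicate 1 was far above the other 3 wild type arrays, which still lay above AGR1/7, and the gene fell by 0.96 ± 0.20 log2 (adjusted p = 0.0183). Without that replicate the change was -0.66 ± 0.12 log2 (adjusted p = 0.00627), and the call was lost without AGR1/7 replicate 2 or 3 (adjusted p up to 0.0596). SPS2, listed by its symbol, read 443.2, 540.2, 491.2 and 451.9 on the wild type arrays and 366.2, 294.9, 301.5 and 253.6 on the AGR1/7 arrays, without overlap, and fell by 0.64 ± 0.11 log2 (adjusted p = 0.00349). That symbol is ambiguous in the gene names used, so whether SPS2 belongs in this list is not certain. INO1-1, the inositol-3-phosphate synthase that makes the inositol ring from glucose 6-phosphate, fell by 0.71 ± 0.12 log2 (adjusted p = 0.00368), from 477 ± 39.4 to 287 ± 41. Of 36 glycolysis and organic acid probe sets 0 were higher and 2 lower. One was the plastid aldolase ALDP, which fell by 0.80 ± 0.13 log2 (adjusted p = 0.00236) on 1 probe set, while its other 2 showed 0.15 and 0.06 log2 (adjusted p = 0.823 and 0.939). The other was the NADP-malic enzyme ME6, which fell by 0.42 ± 0.10 log2 (adjusted p = 0.0326), lost without wild type replicate 1, 3 or 4 or without AGR1/7 replicate 1, 2 or 4 (adjusted p up to 0.0987).

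Wild type replicate 1 was also high for RFS and RSH3. RFS read 1021.9, 572.1, 627 and 573.7 on the wild type arrays and 459, 393.2, 508.7 and 398.8 on the AGR1/7 arrays, and RSH3, of the family that makes the alarmone ppGpp in plastids, read 529.6, 316.5, 332.4 and 337.7 on the wild type arrays and 240.9, 229.2, 244.5 and 253.9 on the AGR1/7 arrays. The other 3 wild type arrays still lay above AGR1/7. RSH3 fell by 0.58 ± 0.12 log2 (adjusted p = 0.0146), with -0.42 ± 0.08 log2 (adjusted p = 0.00956) without replicate 1. RFS fell by 0.61 ± 0.15 log2 (adjusted p = 0.039) and lost its call without wild type replicate 1 or 3 or without AGR1/7 replicate 1, 2 or 4 (adjusted p up to 0.113). In root, wild type replicate 1 was again the highest of its group for RFS (1010.6, 517.7, 543.6 and 488.6), RSH3 (501.7, 265.7, 264.4 and 245.3) and TPP7 (591.6, 65.3, 50.7 and 50.3).

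Clock genes gave 1 call among 44 clock and flowering probe sets (0 higher, median 0.019 log2), where 0.724% of all tested probe sets were called lower. CCA1, the morning clock factor also named LHY, read 3016.2, 3431.8, 3213.3 and 2971.2 on the wild type arrays and 2325.6, 2214.1, 1771.5 and 1768.4 on the AGR1/7 arrays. All AGR1/7 arrays were lower, and it fell by 0.65 ± 0.14 log2 (adjusted p = 0.0188), with the call lost without wild type replicate 2 or 3 or without AGR1/7 replicate 3 or 4 (adjusted p up to 0.0755). PCL1, a clock factor outside that list, rose from 110.5 ± 18 to 214 ± 48.2, by 0.85 ± 0.21 log2 (adjusted p = 0.0425), lost without wild type replicate 1, 2 or 3 or without AGR1/7 replicate 2, 3 or 4 (adjusted p up to 0.141). GI, a clock gene of the evening, showed 0.25 log2, adjusted p = 0.402.

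The remaining lists had at most 2 calls each, where 0.873% of all tested probe sets were called higher and 0.724% lower. Those shares include probe sets without a gene, which were called less often than the annotated ones that lists can hold. Redox genes had 1 higher and 1 lower of 74, the thioredoxins CiTrx (0.40 log2, adjusted p = 0.0493) and Trxm2 (-0.49 log2, adjusted p = 0.0454). Defence genes had 1 higher and 1 lower of 54, the small GTPase RAC4 (0.51 log2, adjusted p = 0.0484) and Cht1. The other probe set of RAC4 (LOC4340590) showed -0.0034 log2 (adjusted p = 0.996). Auxin, cytokinin and gibberellin genes had 1 higher and 1 lower of 108, the auxin response repressor IAA15 (0.52 log2, adjusted p = 0.00163) and the cytokinin receptor kinase HK4 (-0.42 log2, adjusted p = 0.0369). The heat shock list had 1 higher of 66, HSP18.0 (0.75 log2, adjusted p = 0.00721), which showed 0.092 and -0.087 log2 on its other probe sets. Abscisic acid and dehydration genes had 1 lower of 39, the kinase SAPK1 (-0.37 log2, adjusted p = 0.0167), and phosphate and sulphate genes had 1 lower of 33, APRL1 (-0.66 log2, adjusted p = 0.0276). The list named amino acid synthesis had 1 lower of 20, SAMDC (-0.45 log2, adjusted p = 0.0146), which is not itself an enzyme that makes an amino acid. The other probe set of SAMDC (LOC4336294) showed 0.076 log2 (adjusted p = 0.914), and those of APRL1 -0.46 and -0.35 log2 (adjusted p = 0.471 and 0.257). Of these 9 calls other than Cht1, those of IAA15 and HSP18.0 held with any 1 of the 8 arrays left out. SAPK1 was lost without wild type replicate 3 or without AGR1/7 replicate 2 (adjusted p up to 0.0824), SAMDC without AGR1/7 replicate 2 or 3 (adjusted p up to 0.0543), APRL1 without wild type replicate 2, 3 or 4 or without AGR1/7 replicate 2, 3 or 4 (adjusted p up to 0.112), and HK4 without wild type replicate 1, 2, 3 or 4 or without AGR1/7 replicate 1, 2 or 3 (adjusted p up to 0.125). Trxm2 was lost without wild type replicate 2, 3 or 4 or without AGR1/7 replicate 1, 2 or 3 (adjusted p up to 0.158), CiTrx without wild type replicate 1, 2 or 3 or without AGR1/7 replicate 1, 2, 3 or 4 (adjusted p up to 0.181), and RAC4 without wild type replicate 1, 2, 3 or 4 or without AGR1/7 replicate 1, 2, 3 or 4 (adjusted p up to 0.148). In the lists of WRKY, NAC, MYB, bHLH and bZIP factors (53 probe sets), cell wall (84), cell cycle (69), ethylene and jasmonate (48), phenylpropanoids (40), potassium and sodium transport (27) and sugar transport (18) limma called 0, and 9, 9, 11, 2, 6, 5 and 1 had an unadjusted p under 0.05, where 12.5% of all tested probe sets had one.

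Leaving out wild type replicate 1 changed which probe sets were called more than it changed their number. Without it 567 were called (1.49%), 277 higher and 290 lower, and 454 of the 609 calls were among them. Of the plastid list, 12 of 35 were then called higher, with a median of 0.28 log2. Chlorophyll metabolism went from 4 to 2 called and ribosomal proteins from 3 to 2. Calcium signalling then had 4 higher and 4 lower, metal homeostasis 1 and 2, and the auxin, cytokinin and gibberellin list 1 and 0. Of the 80 called probe sets named here, 11 lost the call without that array, and none changed direction under any setting tried. Its loss cost fewer calls than that of replicate 2 or replicate 3 of wild type, which left 345 and 312, or of AGR1/7 replicates 3 and 4, which left 379 and 369. In the 8 fits that left out 1 array the chlorophyll list had 2 to 4 called members, with 2 without wild type replicate 1, 2 or 3 or AGR1/7 replicate 2, 3 or 4. The plastid list had 6 to 12 called higher, with 7 and 6 without wild type replicate 2 or 3, and the tetrapyrrole list had 2 to 4, with 2 without wild type replicate 3.

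**Figure D4:**
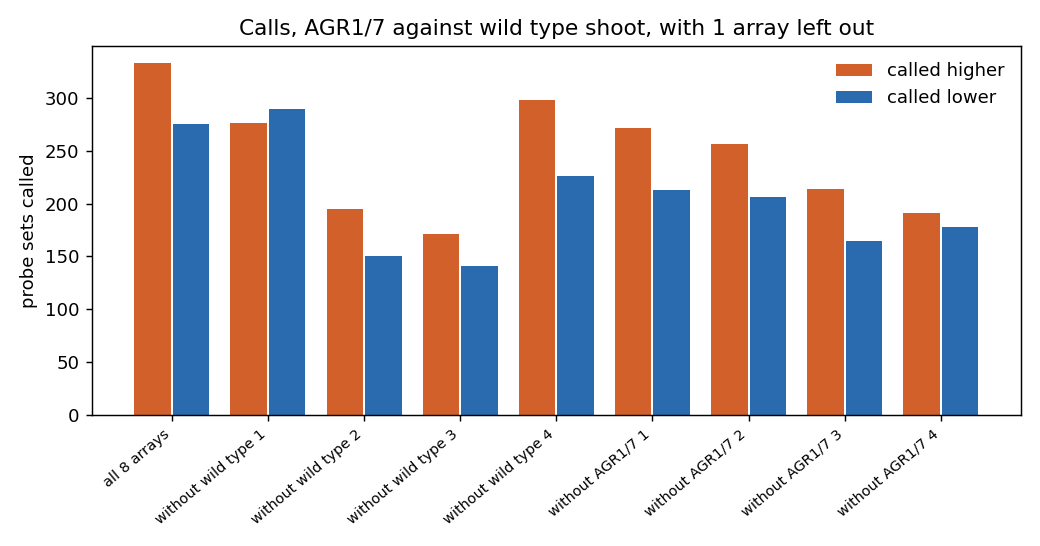
Number of probe sets called higher (orange) and lower (blue) in AGR1/7 shoot against wild type shoot with all 8 arrays and with each array left out. The total falls from 609 to between 312 (without wild type replicate 3) and 567 (without wild type replicate 1).

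To see what sets AGR1/7 apart from lines with the same construct, its shoots were tested against the mean of AGR1/8 and AGR3/8, a comparison that uses no wild type array. 167 of 38129 probe sets were called (0.438%), 56 higher (0.147%) and 111 lower (0.291%). 84 were called in this comparison and against wild type, which is 13.8% of the calls against wild type and 50.3% of those against the lines, and 81 of these had the same sign (34 higher, 47 lower). Both comparisons contain the AGR1/7 shoot arrays. The count of 167 depended on single arrays: it was 73 and 52 without AGR1/7 replicate 1 or 3, 407 and 99 without AGR1/8 replicate 1 or 3, and 318, 99, 93 and 268 without AGR3/8 replicates 1 to 4 in turn. Against the same wild type arrays, 693 probe sets were called in AGR1/8 (1.82%; 1.11% higher, 0.708% lower) and 331 in AGR3/8 (0.868%; 0.456% higher, 0.412% lower).

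The clearest AGR1/7 difference was in LOC4340240. One probe set of it read 359.7, 279, 256.6 and 267 on the wild type arrays and 1135.4, 1236, 1477.5 and 1161.8 on the AGR1/7 arrays, 268.6, 277.2, 291.6 and 303.8 in AGR1/8 and 187.3, 238.5, 182.2 and 257.7 in AGR3/8. Only the AGR1/7 shoots were high, with no overlap with any other shoot. The change was 2.05 ± 0.12 log2 (adjusted p = 3.8e-08) against wild type and 2.26 ± 0.10 log2 (adjusted p = 5.6e-10) against the lines, and a further probe set gave 1.90 and 2.23 log2. The next gene in the gene order on chromosome 6, LOC4340241, was also called, at a mean of 260.0 in wild type and 409.9 in AGR1/7, a change of 0.62 ± 0.088 log2 (adjusted p = 0.000764). The 3 tested genes after it, LOC4340242, LOC4340243 and LOC4340244, were not called, with changes of -0.19, 0.12 and -0.37 and -0.39 log2 (2 probe sets). In AGR1/7 roots LOC4340240 was lower than in wild type roots on the same probe set, -0.62 ± 0.10 log2 (adjusted p = 0.00667).

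LOC4333130 read 14.9, 3.2, 10.1 and 18.2 on the wild type arrays and 55.6, 69.9, 59.3 and 74.8 on the AGR1/7 arrays, while AGR1/8 averaged 9 ± 5.79 and AGR3/8 10.8 ± 3.07. AGR1/7 was the 1 line above the wild type level, by 1.58 ± 0.19 log2 (adjusted p = 0.000213), and by 1.65 ± 0.17 log2 (adjusted p = 2.95e-05) against the lines. LOC4337388 rose from 79.3 ± 17.3 to 357 ± 55.8, by 1.97 ± 0.28 log2 (adjusted p = 0.000857), and by 1.59 ± 0.25 log2 (adjusted p = 0.00462) against the lines. LOC9268613 rose by 1.63 ± 0.17 log2 (adjusted p = 3.99e-05) and 1.18 ± 0.16 log2 (adjusted p = 0.000412) on its called probe sets, and by 1.66 and 0.88 log2 against the lines (adjusted p = 6.65e-06 and 0.00443). LOC4340413 rose from 40.4 ± 7.44 to 118 ± 25.2, by 1.24 ± 0.17 log2 (adjusted p = 0.000757), and by 1.37 ± 0.15 log2 (adjusted p = 8.89e-05) against the lines, with -0.011 log2, adjusted p = 0.991 against wild type on a further probe set.

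On the lower side, the probe set with the next largest fall among those with no gene in the annotation, called here the second unassigned probe set, read 139.7, 113.1, 146.6 and 165.2 on the wild type arrays and 25.1, 26.9, 22.2 and 34.1 on the AGR1/7 arrays. The lines averaged 120.0 ± 38.3 and 112 ± 12.7, and the AGR1/7 difference was -1.86 ± 0.17 log2 (adjusted p = 5.43e-06) against wild type and -1.60 ± 0.14 log2 (adjusted p = 6.65e-06) against the lines. LOC4339562 read 37.7, 35.5, 48.8 and 40.4 on the wild type arrays and 0.9, 3.3, 1.1 and 30.7 on the AGR1/7 arrays, with 3 AGR1/7 arrays at background and replicate 4 just below the wild type arrays, and changed by -1.32 ± 0.26 log2 (adjusted p = 0.0102) and -1.29 ± 0.22 log2 (adjusted p = 0.0117). Named genes lower in AGR1/7 in both comparisons included AMT1-1 (-0.47 ± 0.073 log2, adjusted p = 0.00498 against the lines), FRO1 (-0.77 ± 0.14 log2, adjusted p = 0.0201), CAX1a (-0.64 ± 0.13 log2, adjusted p = 0.0358) and APRL1 (-0.61 ± 0.13 log2, adjusted p = 0.0414). CIPK10 (0.38 ± 0.08 log2, adjusted p = 0.0402) and ZIP4 (0.83 ± 0.18 log2, adjusted p = 0.0417) were higher in both. LOC4335304 went the other way. It read 3.9, 5, 5.3 and 3.6 on the wild type arrays and 33, 45.1, 23.5 and 56.7 on the AGR1/7 arrays, a rise of 1.41 ± 0.21 log2 (adjusted p = 0.00109), and its difference from the lines was -1.33 ± 0.18 log2 (adjusted p = 0.00117). A further probe set of it rose by 1.54 ± 0.28 log2 (adjusted p = 0.00675) against wild type, and the remaining one showed 1.14 log2, adjusted p = 0.0824.

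Among the plastid and chlorophyll genes, CHLD, CPX, PRIN2 and RPL18 did not pass the test against the other lines, which does not show that the lines are alike. CHLD differed by 0.095 ± 0.079 log2 (adjusted p = 0.659), CPX by 0.046 ± 0.13 log2 (adjusted p = 0.917), PRIN2 by 0.37 ± 0.14 log2 (adjusted p = 0.277) and RPL18 by 0.21 ± 0.15 log2 (adjusted p = 0.581). Against the shared wild type arrays, CHLD was 0.57 log2 in AGR1/7, 0.52 in AGR1/8 and 0.43 in AGR3/8, CPX 0.72, 0.75 and 0.60, and RPL18 0.99, 0.90 and 0.65.

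**Figure D5:**
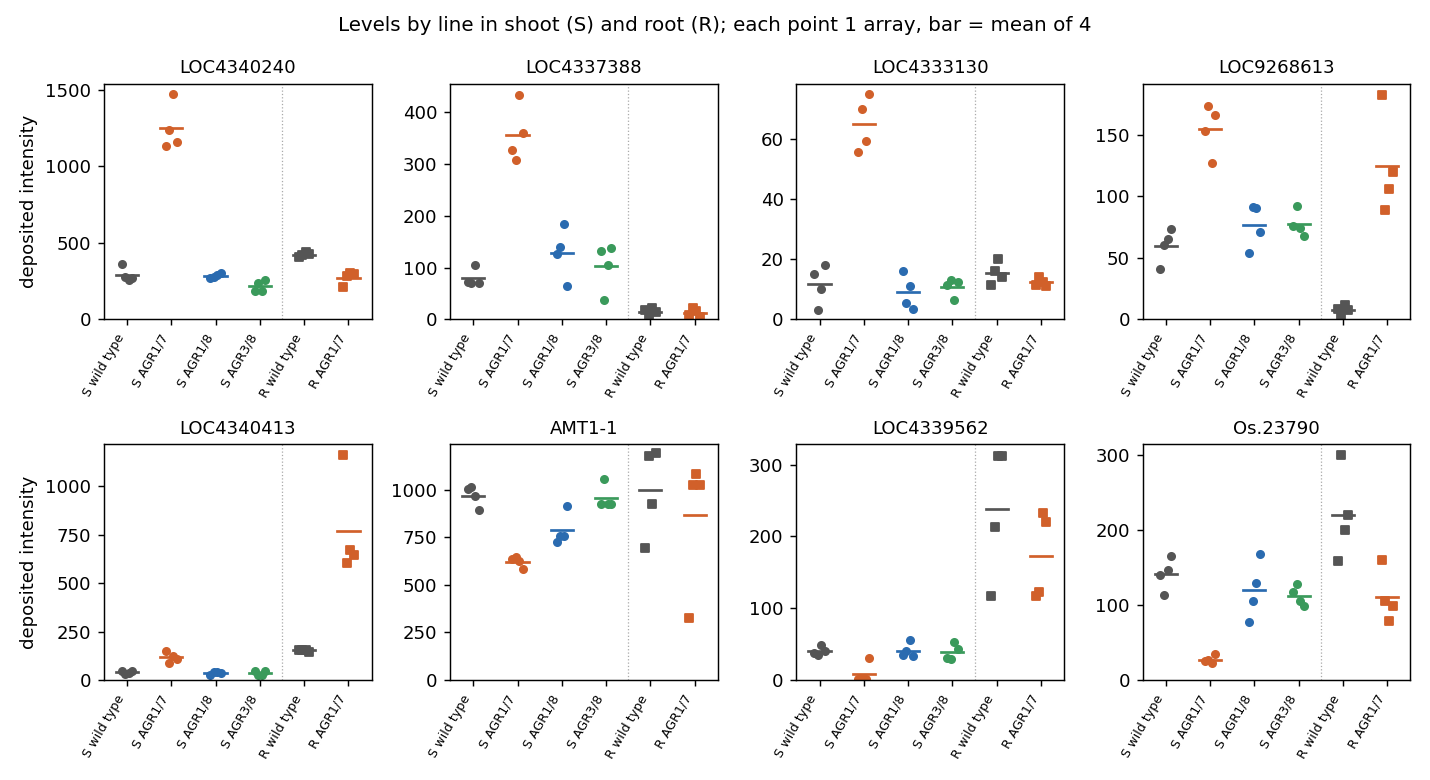
Deposited intensity of 8 transcripts on each array of the shoots (S, circles) of wild type and the 3 lines and of the roots (R, squares) of wild type and AGR1/7, with group means as bars and a separate scale per panel. The last panel is the second unassigned probe set. All 8 were called in AGR1/7 shoot against wild type shoot and against the other lines, 5 higher and 3 lower.

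The same line was also measured in root. AGR1/7 roots differed from wild type roots at 940 of 38129 probe sets (2.47%; 1.52% higher, 0.949% lower), a count that was 596 without wild type root replicate 1 and 429, 386 and 389 without AGR1/7 root replicate 1, 3 or 4. Of the 559 shoot calls tested in root, 63 were called there too, 11.3% of these shoot calls and 7.24% of the root calls tested in shoot. 55 of the 63 had the same sign, 45 higher in both tissues and 10 lower in both, and without wild type shoot replicate 1 the count of the same sign was 50. LOC4331398 read 12.7, 9.8, 6.2 and 7.9 in wild type root and 2606.7, 2716.5, 2312 and 2370.7 in AGR1/7 root, a change of 6.65 ± 0.66 log2 (adjusted p = 9.58e-05). The top unassigned probe set changed by 6.49 ± 0.11 log2 (adjusted p = 1.18e-15) in root. LOC9268613 (2.53 ± 0.20 log2, adjusted p = 1.16e-05), LOC4340413 (2.17 ± 0.19 log2, adjusted p = 1.97e-05), BBD1 (1.78 ± 0.25 log2, adjusted p = 0.00256), CIPK10 (1.39 ± 0.22 log2, adjusted p = 0.00528), LOC4350698 (1.17 ± 0.19 log2, adjusted p = 0.00733), PCL1 (0.93 ± 0.14 log2, adjusted p = 0.00453), wsl3 (0.70 ± 0.12 log2, adjusted p = 0.00786) and EGY1 (0.66 ± 0.15 log2, adjusted p = 0.0378) were higher in root as in shoot. RFS (-0.89 ± 0.20 log2, adjusted p = 0.0305), CCA1 (-0.56 ± 0.092 log2, adjusted p = 0.00784) and the second unassigned probe set (-0.89 ± 0.18 log2, adjusted p = 0.0216) were lower in both.

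A fit over both tissues tested whether the AGR1/7 effect differed between them. It called 1160 of 38129 probe sets (3.04%; 1.56% higher, 1.48% lower), among them 214 of the 607 shoot calls that entered it. The total fell to 608 and 491 without wild type shoot replicate 2 or 3, to 534 and 578 without AGR1/7 shoot replicate 1 or 3, to 646 without wild type root replicate 1 and to 450 without AGR1/7 root replicate 1, and it was 996 without wild type shoot replicate 1. For CHLD the shoot effect exceeded the root effect by 0.63 ± 0.17 log2 (adjusted p = 0.0375), for CHLG by 0.92 ± 0.18 log2 (adjusted p = 0.00666), for CPX by 0.77 ± 0.19 log2 (adjusted p = 0.0266), for PRIN2 by 1.08 ± 0.22 log2 (adjusted p = 0.00892) and for RPL18 by 1.01 ± 0.23 log2 (adjusted p = 0.0166). RPL18 averaged 112 ± 25.8 in wild type root against 669.6 ± 135 in wild type shoot, and PRIN2 15.7 ± 3.89 against 89.5 ± 14.4. PRIN2 in root thus lay near the constant of 16, which shrinks changes there. These genes were chosen as called in shoot, and the same shoot arrays enter the test of the tissue difference. Other called plastid and chlorophyll genes did not pass this test, with differences in log2 of 0.056 (adjusted p = 0.911) for wsl3, -0.035 (adjusted p = 0.948) for EGY1, -0.15 (adjusted p = 0.737) for MRL7L and -0.33 (adjusted p = 0.56) for NYC1. Those of wsl6, RRF, LTD and PORA were 0.60, 0.50, 0.45 and 0.63 log2 (adjusted p = 0.111, 0.0726, 0.0814 and 0.212). For AMT1-1 the tissue difference was -0.31 ± 0.31 log2 (adjusted p = 0.651).

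The calls with 1 gene were spread over the 12 chromosomes. They made up from 1.42% of the tested probe sets with 1 gene on chromosome 6 to 3.2% on chromosome 3. The 1.6% called over all tested includes probe sets without a gene, so it is not the matching share. Of the 424 genes called, 9 pairs stood next to each other in the gene order, 6 of them with the same sign. The number of such pairs that 424 genes would give regardless of position was not worked out. The pairs are therefore a description and do not show that calls cluster. One pair was LOC4331397, at 0.72 log2, and LOC4331398 on chromosome 3, and another LOC4340240 and LOC4340241.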

How the data were processed

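Rice shoots and roots were measured on 1-colour Affymetrix rice arrays, 4 per group. The deposited intensities are on a linear scale, and the 2% trimmed mean of every array lies between 99.7 and 99.83, so they had been scaled before deposit. No name for the software behind them is given in the sources used. The number of arrays limits the precision. Labels call the replicates biological.

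Of 57381 probe sets, 187 controls were left out. log2(intensity + 16) was fitted with limma 3.58.1 in R 4.3.3 (lmFit, eBayes with an intensity trend) over the 16 shoot arrays, after the dimmest 33.3% of probe sets were dropped by mean over those arrays. The root fit used 16 arrays and the fit of both tissues 32. Benjamini-Hochberg adjustment ran across the 38129 tested. Scripts were tested on simulated data. Gene names come from a platform annotation and the RefSeq table of assembly ASM3414082v1. 22436 probe sets have 1 gene, 95 several and 34663 none. Named genes are those with the largest changes, those called in both tissues or against the other lines, and called members of the lists; members that did not pass were named as examples after their values were seen. The members and lists were chosen with earlier results of these data known.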

Additional observations from a re-analysis of the deposited data

Results flagged for a closer look

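Named probe sets were looked at for an array far from the other 3 of its group. Of 160 groups of 4 arrays (80 called probe sets, wild type and AGR1/7), 9 held such an array, where chance gives about 1 in 20. Wild type replicate 1 was the stray array for RFS (1021.9, the others 572.1 to 627), GLK2 (168.7, the others 89.5 to 103) and RSH3 (529.6, the others 316.5 to 337.7). Wild type replicate 3 was high for LOC4337388 (105.2, the others 70 to 72.1), and wild type replicate 4 was low for a probe set of CIPK31 (250.9, the others 300.5 to 307.8). AGR1/7 replicate 1 was low for 1 probe set of LOC4328727 (334.7, the others 732 to 799.2) and high for LOC4344351 (311, the others 206.6 to 221.4). AGR1/7 replicate 4 was high for LOC4339562 (30.7, the others 0.9 to 3.3) and for wsl6 (166.1, the others 129.5 to 134.7).

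The AGR1/7 effect differed between shoot and root, by limma's test of the difference itself over all 32 arrays, for 34 of the named probe sets. Values are the shoot effect minus the root effect in log2. Of the named tetrapyrrole and plastid genes, which were chosen as called in shoot, some passed this test and wsl3, EGY1, MRL7L, wsl6, RRF, LTD, PORA and NYC1 did not. The differences that passed were 0.63 for CHLD, 0.92 for CHLG, 0.77 for CPX, 0.78 for ASL1, 0.97 for MRL7, 1.01 for RPL18, 0.72 for SECY, 0.72 for PPT2 and 1.08 for PRIN2. GLK2 showed -0.87 and the plastid aldolase ALDP -1.0, both on probe sets left out of the root fit as dim, so their root effect alone was not tested. TIP4-1 showed 1.10, IAA15 0.79 and RAC4 1.10, while SAPK1 showed -0.46, and the metallothioneins MT1B and MT4C -1.08 and -1.02. Among genes without a descriptive name the differences were 2.28 and 2.67 for the probe sets of LOC4340240, 2.09 for LOC4337388, 1.94 and 1.36 for LOC4335304, 1.72 for LOC4333130 and 1.56 and 1.21 for LOC4333719. They were -0.79 for LOC4326913, -1.69 and -1.68 for LOC4328727 and -2.23 for LOC4344351. LOC9268613 (-1.35), LOC4340413 (-0.94) and the top unassigned probe set (-3.79) were higher than wild type in both tissues, with the larger effect in root. The second unassigned probe set showed -0.97, and the one that fell most -1.93.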

How the results depend on the processing

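The 609 calls in AGR1/7 shoot became 344 without the intensity trend, 1099 with array weights and 92 with a minimum change of 1 log2, and lay between 445 and 866 under the other scalings, constants, filters and the fit of the 8 arrays alone. Leaving out 1 array gave 312 to 567. Against the other lines, 167 became 88 without the filter and 76 without the trend, and 52 to 407 with an array left out. In root, 940 became 560 without the filter and 625 without the trend, and 386 to 1096 with an array left out. The difference between tissues, 1160, became 755 with log2(intensity + 1), 675 without the filter and 730 without the trend, and 450 to 1576 with an array left out. The 55 calls of the same sign in both tissues lay between 41 and 78, and 37 to 55 with an array left out. The cause of these shifts was not tested. Same-numbered wild type and AGR1/7 shoot arrays had correlations of deviations of 0.193, 0.061, -0.0011 and 0.075, against -0.141 to 0.068 for different numbers. The numbers were not taken to pair samples, since nothing in the labels says that they do. Whether same-numbered shoots and roots share plants or a batch was not tested, and the fit of both tissues treats its arrays as independent. The fit with the replicate block gave 728 calls in shoot, 268 against the other lines, 586 in root, 1195 for the tissue difference and 55 in both tissues. Of the 80 called probe sets named, 57 were called without the trend, 64 without the filter, 70 with median centring, 64 in the fit of the 8 arrays alone and 52 to 70 with 1 array left out, and none reversed. The repeat without each array and the tetrapyrrole and plastid lists were added after seeing the data. Probe sets near background have bounded folds, since the constant of 16 shrinks them.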
